A study of Mus musculus with 2 samples.

Results

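The proteasome is the barrel-shaped protease that degrades proteins tagged with ubiquitin. Its genes were examined in RNA from mouse testis, described as from spermatocytes, which are the germ cells in meiosis. Members were the protein-coding genes whose symbol is Psm followed by a letter from a to g, a number and at most 1 more letter. This gave 49 genes of 53801 in the table, and of 22058 protein-coding genes. Each genotype was represented by 1 library, labelled SMC1beta WT (WT below) in one case and SMC1beta knockout overexpressing SMC1alpha (the labelled knockout) in the other. The protocol speaks of sorted spermatocytes and of total testis, without saying which a library came from. 4N stands in the names of both libraries with no explanation in the labels. SMC1beta is the meiotic form and SMC1alpha the general form of a subunit of cohesin, the ring that holds sister chromatids together. The labels used here give no strain, age or number of animals, nor what drives the added SMC1alpha, and a knockout without it was not analysed here. With 1 library per genotype no difference below has a replicate check and no p-value is given, so "higher" and "lower" describe these 2 libraries only.

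As background, the 20S core is a stack of alpha and beta rings, and the beta rings carry the proteolytic sites. The 19S particle caps the core, recognises ubiquitin chains, and unfolds and feeds the substrate with a ring of ATPases. The PA28 and PA200 activators are other caps. Interferon-induced beta subunits can replace the constitutive catalytic ones, which gives the immunoproteasome. In the testis, spermatocytes and spermatids make a germ-cell alpha subunit, PSMA8, and PA200 is abundant. Proteasomes with these parts are known for the turnover of meiotic chromosome proteins and of acetylated histones.

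Values are TPM (transcripts per 1000000, a length-corrected share of all RNA), so levels can be compared between genes. Log2 ratios take log2 of (TPM + 1) for the labelled knockout divided by the same for WT, and higher or lower by 2-fold means at least 1 on that scale. Protein-coding genes held 62.6% of all TPM in WT and 49.0% in the labelled knockout, so each ratio was also computed under 3 rescalings. These shifted the median of protein-coding genes by 0.28 to 0.41, from -0.05 as deposited. Smc1b stood at 76.1 and 62.9 TPM and Smc1a at 0.51 and 28.8 TPM in WT and the labelled knockout. The gene-level value does not show whether the deleted part of Smc1b is present. Cell type markers also differed between the libraries, and in each pair of values WT comes first here and below. The 12 spermatocyte markers summed to 2693 TPM in WT and 2839 TPM in the labelled knockout, while the 10 spermatid markers summed to 2593 and 59.3 TPM. The spermatocyte markers were not alike one by one, since 4 were at least 2-fold higher, among them Sycp1 (68.4 and 259 TPM) and Dmc1 (0.778 and 21.3 TPM), and 2 lower, Ccna1 (186 and 38.0 TPM) and Pou5f2 (92.8 and 15.2 TPM). Markers of Leydig cells (62.0 and 1629 TPM), Sertoli cells (66.4 and 427.8 TPM), spermatogonia (10.7 and 88.1 TPM) and macrophages (4.60 and 43.2 TPM) were higher in the labelled knockout, as were those of myoid cells (7.75 and 45.8 TPM) and of T and NK cells (0.515 and 2.65 TPM). Endothelial markers summed to 7.48 and 8.02 TPM. In bulk RNA a different number of cells of a type and a different amount of RNA per cell cannot be told apart.

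Of the 47 proteasome genes that could be compared, 38 stood within 2-fold of each other in the libraries, and the PA28 pair Psme1 and Psme2 stood out. Of the 49 members, 46 were at 1 TPM or more in both libraries. Psmb9 was so only in the labelled knockout, and its ratio could therefore only be upward. Psmb8 stayed under 1 TPM and Psme2b was listed at 0 in both. For the 47 members that reached 1 TPM in either library, 6 (12.8%) were higher by 2-fold or more in the labelled knockout, namely Psme1, Psme2, Psmb9, Psmb10, Psma7 and the X-linked Psmd10. Of all protein-coding genes filtered the same way, 18.7% were at least 2-fold higher. At least 2-fold lower were 3 members (6.38%), namely Psmf1, Psmb5 and Psmc3, against 16.5% of protein-coding genes. None of these 3 stayed 2-fold lower under any of the 3 rescalings. The median log2 ratio of the 47 was 0.13, with quartiles of -0.19 and 0.60, against a median of -0.05 and quartiles of -0.69 and 0.74 for protein-coding genes. Members summed to 4053 TPM in WT and 3673 TPM in the labelled knockout, or 0.648% and 0.750% of the protein-coding TPM.

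**Figure D1:**
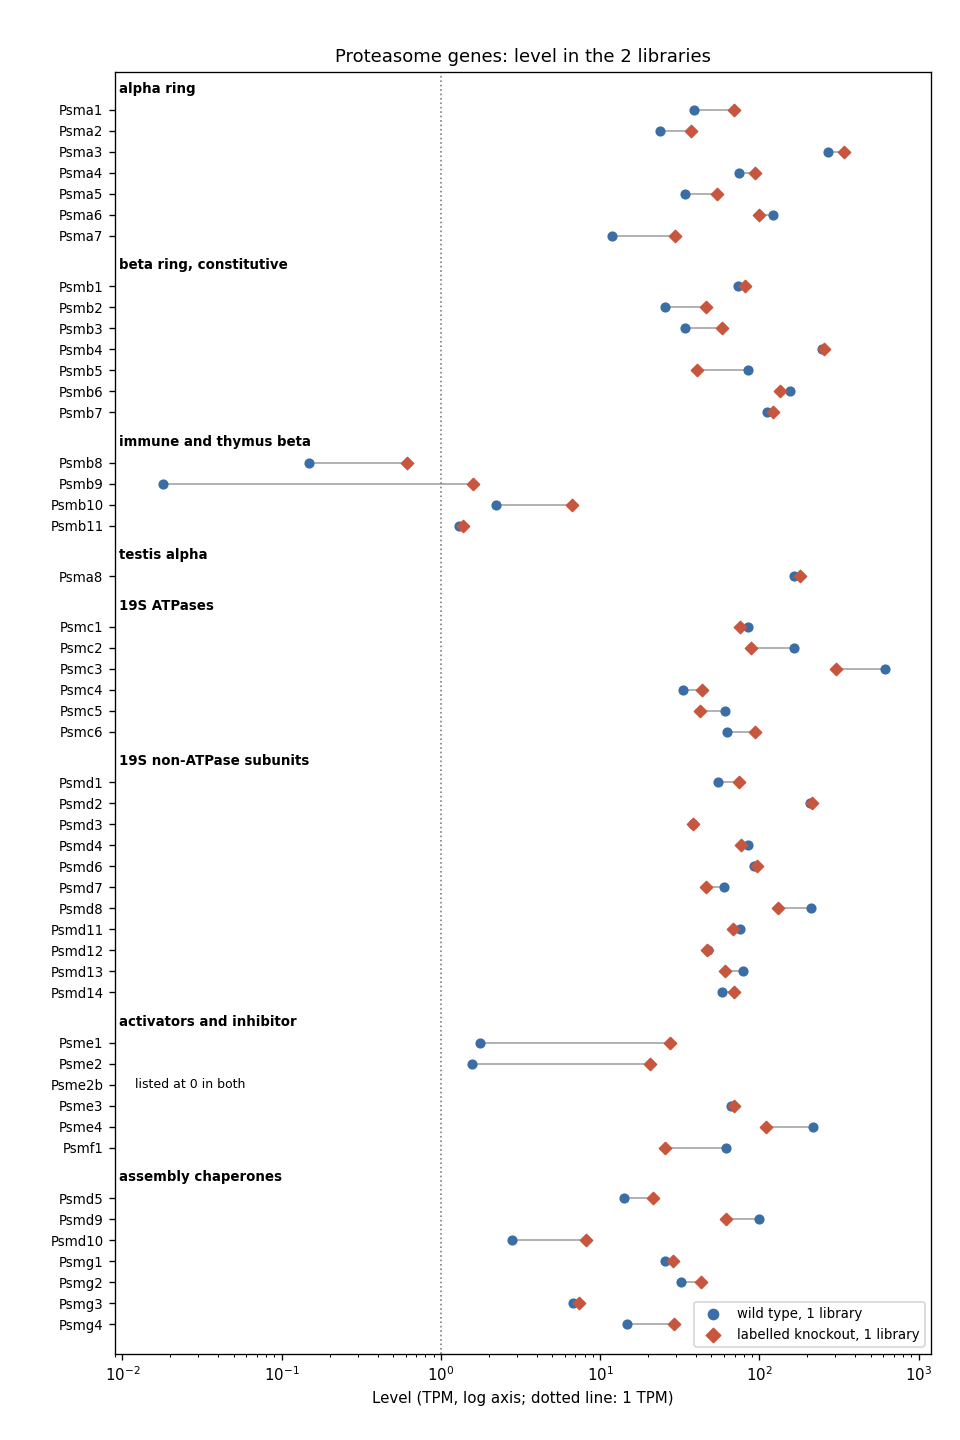
Level of each of the 49 proteasome genes in TPM (log axis), with a circle for the wild-type library and a diamond for the labelled knockout library, 1 library each, grouped by role. Most pairs lie close together, while Psme1 stands at 1.75 and 27.3 TPM, Psme2 at 1.57 and 20.6 TPM, and Psmb9 at 0.018 and 1.59 TPM.

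Psme1 and Psme2 encode the alpha and beta subunits of PA28, a ring-shaped cap that opens the core without using ATP and is known to be induced by interferon-gamma. They lie 5911 bases apart on mm10 chromosome 14, Psme1 (ENSMUSG00000022216) at 55578123 to 55581529 on the plus strand and Psme2 (ENSMUSG00000079197) at 55587441 to 55591113 on the minus strand. The stretches before their start sites are shown because this pair had the highest log2 ratios of the members with the pseudocount of 1 TPM. With 0.1 TPM, Psmb9 (3.84) lay between Psme1 (3.89) and Psme2 (3.64). For comparison the same is shown for Psmb5, a core subunit that was lower, and Psmc6, an ATPase that was higher. Sequences are from RefSeq (GRCm38.p6), read on the gene's strand up to 250 bases before the start site and without bases in exons of coding transcripts. Psme1 spans chr14:55578249-55578359 (plus), Psme2 chr14:55591114-55591351 (minus), Psmb5 chr14:54618023-54618245 (minus) and Psmc6 chr14:45329574-45329787 (plus). Capitals mark matches on either strand to TGACNNNGC, the antioxidant-type element through which NFE2L1 is known to raise proteasome genes. The Psme1 stretch lies inside the annotated gene, since a GENCODE transcript starts farther upstream. It holds 111 bases, 135 to 245 bases before the RefSeq start site, and bases nearer to that site are not shown. The stretches of Psme2, Psmb5 and Psmc6 reach to 13, 28 and 37 bases from theirs.
Psme1: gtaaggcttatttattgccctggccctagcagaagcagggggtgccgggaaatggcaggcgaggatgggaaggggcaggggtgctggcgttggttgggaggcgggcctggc
Psme2: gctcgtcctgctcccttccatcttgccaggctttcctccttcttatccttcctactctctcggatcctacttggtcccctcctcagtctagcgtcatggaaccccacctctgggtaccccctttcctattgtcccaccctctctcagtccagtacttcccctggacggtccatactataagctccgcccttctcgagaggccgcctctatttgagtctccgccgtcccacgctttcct
Psmb5: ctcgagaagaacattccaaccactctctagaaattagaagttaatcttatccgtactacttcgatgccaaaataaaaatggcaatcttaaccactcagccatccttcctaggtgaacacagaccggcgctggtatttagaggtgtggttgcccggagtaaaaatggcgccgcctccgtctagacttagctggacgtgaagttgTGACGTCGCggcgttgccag
Psmc6: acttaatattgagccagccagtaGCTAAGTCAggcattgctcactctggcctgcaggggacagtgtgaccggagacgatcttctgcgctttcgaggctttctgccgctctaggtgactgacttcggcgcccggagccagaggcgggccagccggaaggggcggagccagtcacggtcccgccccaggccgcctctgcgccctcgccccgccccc

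RefSeq promoter windows were at hand for 41 of the 49 members. In the 250 bases before the start site, TGACNNNGC was present in 5 of these (12.2%), namely Psmb5, Psmb6, Psmc6, Psmd9 and Psmd12, and in 11.5% of the 27025 genes of the promoter table. The 5 genes had log2 ratios on both sides of 0, from -1.04 for Psmb5 to 0.58 for Psmc6. TTCNNNGAA, the gamma-interferon-activated type of element, matched in Psmb8 and Psmg1 (4.88%, against 8.13% of genes). A pair of GAAA copies with any 2 bases between, an interferon-stimulated type of element, matched in Psmb3, Psmd4 and Psmd9 (7.32%, against 3.46%). Both strands were read for each motif, and a match is a description of the letters, not evidence of binding.

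The proteolytic core had similar summed levels in both libraries as deposited. The 14 constitutive 20S genes summed to 1307 TPM in WT and 1459 TPM in the labelled knockout, and their median log2 ratio was 0.33. Under the rescalings the sum was higher, at 1.37, 1.48 and 1.43 times that of WT. The RNA levels of the 14 genes differed widely within a library, from Psma7 at 11.9 TPM to Psma3 at 269 TPM in WT, a 22.5-fold range. In the labelled knockout the same 2 genes marked the ends, at 29.5 and 338 TPM, an 11.4-fold range. Psma7 stands apart, since PSMA8 can take the place of its product. Psma7 and Psma8 together had 176 TPM in WT and 211 TPM in the labelled knockout. The next lowest core gene was Psma2, at 23.6 and 37.0 TPM. With Psma7 among the 14 genes, the SD of log2 (TPM + 1) was 1.31 in WT and 1.01 in the labelled knockout. The SD without Psma7 was not computed.

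In the alpha ring, which forms the gate of the core, 6 of 7 genes were higher and 1 lower, with a median log2 ratio of 0.63 and 1 gene past 2-fold. The sum was 574 TPM in WT and 722 TPM in the labelled knockout. Psma7 (ENSMUSG00000027566; mm10 chromosome 2, 180036373 to 180042433, minus strand), the alpha subunit whose place PSMA8 can take, stood at 11.9 and 29.5 TPM, 2.48-fold higher in the labelled knockout. Its log2 ratio was 1.24 and lay between 1.53 and 1.66 under the rescalings. Psma1 stood at 39.0 and 69.7 TPM (0.82), Psma5 at 34.3 and 54.2 TPM (0.65) and Psma2 at 23.6 and 37.0 TPM (0.63). The abundant members Psma3 (269 and 338 TPM, log2 ratio 0.33) and Psma4 (74.8 and 93.6 TPM, log2 ratio 0.32) had smaller ratios. Psma6 was the one below 0, at 122 and 99.5 TPM, and its sign turned under 2 of the 3 rescalings.

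The constitutive beta ring summed to 733 and 737 TPM, and 5 of 7 genes were higher and 2 lower, with a median log2 ratio of 0.13. Psmb2 stood at 25.4 and 46.2 TPM (0.84) and Psmb3 at 34.3 and 57.9 TPM (0.74), and both are non-catalytic. Psmb4 (247 and 254 TPM, log2 ratio 0.04) and Psmb1 (73.2 and 81.2 TPM, log2 ratio 0.15) are also non-catalytic and stood at nearly equal levels. The catalytic genes did not share a direction. Psmb7, with trypsin-like activity, stood at 111 and 122 TPM (log2 ratio 0.13) and Psmb6, with caspase-like activity, at 156 and 135 TPM (log2 ratio -0.21, positive under each rescaling).

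Psmb5, with chymotrypsin-like activity, was the gene of the core with the lowest log2 ratio, and its value may depend on a pseudogene that shares part of its sequence. Psmb5 (ENSMUSG00000022193; mm10 chromosome 14, 54614119 to 54618022, minus strand) had a level of 84.9 TPM in WT and 40.8 TPM in the labelled knockout, 2.08-fold lower, with a log2 ratio of -1.04. Gm3375, a processed pseudogene, stood at 0.129 and 20.98 TPM. In the GENCODE M21 transcripts, 32.9% of the 75-base words of Psmb5, the length of a read, also occur in Gm3375. Summed, the pair stood at 85.1 and 61.7 TPM, with a log2 ratio of -0.46, no longer past 2-fold. How reads were shared between the pair was not tested, and the 2-fold lower value of Psmb5 is uncertain for this reason. Of the other 10 expressed members that share such words with a listed pseudogene or with Psme2b, none crossed the 2-fold line when summed with those copies.

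Psma8, the germ-cell alpha subunit, was among the most abundant members. As deposited it stood at nearly equal levels, 164 TPM in WT and 181 TPM in the labelled knockout, a log2 ratio of 0.14. That ratio lay between 0.43 and 0.55 under the rescalings. Among the 15000 protein-coding genes at 1 TPM or more in either library, Psma8 ranked 819th in WT and 412th in the labelled knockout. Psma8 made up 93.2% of the summed TPM of Psma7 and Psma8 in WT and 86.0% in the labelled knockout. The germ-cell form thus exceeded the general form 13.8-fold and 6.13-fold. These shares are ratios within a library and do not move with rescaling. Markers of Leydig, Sertoli and myoid cells, macrophages and spermatogonia were higher in the library with the larger Psma7 share, and their part in it was not tested.

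**Figure D2:**
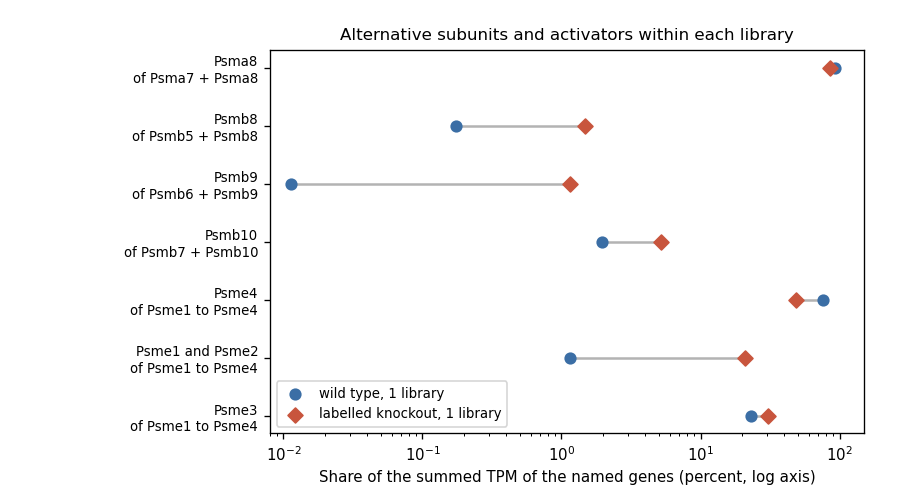
Share of each alternative subunit or activator in the summed TPM of the genes it stands with (percent, log axis), with a circle for wild type and a diamond for the labelled knockout, 1 library each. Psma8 holds 93.2% and 86.0%, Psmb9 0.0114% and 1.16%, and Psme1 with Psme2 1.16% and 21.1%.

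The immunoproteasome genes were scarce in both libraries and higher in the labelled knockout. Psmb10, which replaces Psmb7, stood at 2.21 and 6.63 TPM, with a log2 ratio of 1.25. Psmb9, which replaces Psmb6, stood at 0.018 and 1.59 TPM (log2 ratio 1.35). Psmb8, which replaces Psmb5, stood at 0.148 and 0.610 TPM. At these levels the number of reads behind a value is unknown, and a linear fold of Psmb8 or Psmb9 has no known precision. Each remained a small part of its pair in the labelled knockout. Psmb10 held 1.95% of Psmb7 and Psmb10 in WT and 5.17% in the labelled knockout. Psmb9 held 0.0114% and 1.16% of its pair with Psmb6. Psmb8 held 0.174% and 1.47% of its pair with Psmb5, or 0.173% and 0.978% with Gm3375 added to Psmb5. Psmb11, the thymus form, stood at 1.29 and 1.38 TPM, with a log2 ratio of 0.05.

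Genes of antigen presentation, the pathway the immunoproteasome is known to serve, were in part also higher. Of 6 listed, 5 were at 1 TPM or more, with 3 at least 2-fold higher, 0 lower and a median log2 ratio of 1.23, beside 18.7% and 16.5% of all protein-coding genes. Psmb9 shares its promoter region with Tap1, the peptide transporter subunit, since their RefSeq start sites lie 226 bases apart on opposite strands of chromosome 17. Tap1 was listed at 0 in WT and its level in the labelled knockout was 0.858 TPM. H2-D1 (1.32 and 18.4 TPM), B2m (6.03 and 41.9 TPM) and H2-K1 (21.8 and 52.3 TPM), which form MHC class I molecules, were each at least 2-fold higher. Tapbp, which loads peptides, was lower at 56.2 and 33.2 TPM (log2 ratio -0.74), and Tap2 stood at 1.16 and 1.64 TPM. Of the interferon-pathway factors, Irf1 stood at 0.643 and 9.02 TPM and Nlrc5 at 0.265 and 0.536 TPM.

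Psme1 stood at 1.75 TPM in WT and 27.3 TPM in the labelled knockout, a 15.6-fold difference, with a log2 ratio of 3.36. Psme2 stood at 1.57 and 20.6 TPM, 13.2-fold higher, with a log2 ratio of 3.07. In each library the 2 subunits were at similar levels. Among protein-coding genes at 1 TPM or more in either library, Psme1 stood at percentiles 22.1 and 72.5 and Psme2 at 20.5 and 65.8. Both ratios stayed above 3 under each rescaling. With its pseudogene Gm7776 added (2.31 and 2.35 TPM), Psme1 had a log2 ratio of 2.60. Psme2b, a copy of which 60.2% of the 75-base words also occur in Psme2, was listed at 0 in both libraries. Leydig, Sertoli, spermatogonia and macrophage markers were higher in the same library, with 6 of 6, 7 of 8, 9 of 10 and 7 of 10 genes at least 2-fold higher. Of those counted as higher, 0, 1, 7 and 7 were under 1 TPM in WT and so could only have been counted upward. Among macrophage markers, Cd74 stood at 0.398 and 12.9 TPM, and Fcer1g and C1qa were both listed at 0 for WT. Cx3cr1, the macrophage marker with the highest WT level, was lower at 1.83 and 1.01 TPM, and Adgre1 stood at 0.481 and 0.738 TPM. The part of these cells in the higher Psme1, Psme2 and immune subunits was not tested.

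**Figure D3:**
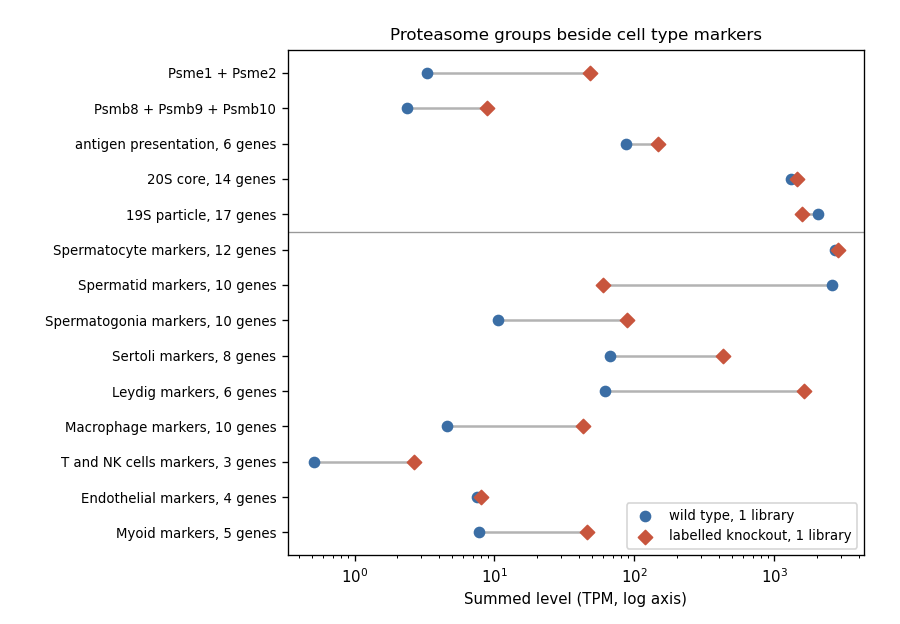
Summed TPM (log axis) of proteasome groups, antigen presentation genes and cell type markers, with a circle for wild type and a diamond for the labelled knockout, 1 library each. Psme1 and Psme2 go from 3.31 to 47.9 TPM together, in the direction of the Leydig, Sertoli, spermatogonia and macrophage markers. The 20S core as deposited (1307 and 1459 TPM) lies within a narrow range.

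The other caps went different ways. Psme4, the single-chain activator PA200, was the most abundant activator gene and stood at 216 TPM in WT and 110 TPM in the labelled knockout, 1.96-fold lower, with a log2 ratio of -0.96 that lay between -0.67 and -0.56 under the rescalings. Psme3, the nuclear PA28 gamma, stood at 65.9 and 69.0 TPM (0.07). Of the summed TPM of Psme1 to Psme4, Psme4 held 75.8% in WT and 48.6% in the labelled knockout, Psme3 held 23.1% and 30.3%, and Psme1 with Psme2 held 1.16% and 21.1%. Psmf1 (ENSMUSG00000032869; mm10 chromosome 2, 151715812 to 151744186, minus strand), known as a proteasome inhibitor in vitro, stood at 61.4 and 25.5 TPM, 2.41-fold lower, and had the lowest log2 ratio of the members at -1.24. Under the rescalings it lay between -0.95 and -0.85. Spermatid markers were higher in WT, the library with more Psme4 and Psmf1, with 10 of 10 markers at least 2-fold higher there, and their part was not tested.

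The 19S particle was lower in sum, from 2035 TPM in WT to 1571 TPM in the labelled knockout, which is 0.772 times the WT sum. Under the rescalings the sum was 0.946, 1.02 and 0.986 times that of WT, nearer to equal and higher in 1 of the 3. The 6 ATPases summed to 1027 and 648 TPM, with a median log2 ratio of -0.35, 2 genes above 0 and 4 below. The median turned positive, to 0.05, in the rescaling that leaves out mitochondrial genes and the 20 most abundant. Psmc3 (ENSMUSG00000002102; mm10 chromosome 2, 91054009 to 91066369, plus strand) was the most abundant member in WT, ranking 79th of protein-coding genes at 618 TPM. Its level in the labelled knockout was 304 TPM, 2.04-fold lower, with a log2 ratio of -1.02. It alone made up 60.2% of the ATPase sum in WT and 46.9% in the labelled knockout, and the other 5 ATPases summed to 409 and 344 TPM. Psmc2 stood at 166 and 88.8 TPM (-0.89) and Psmc5 at 61.2 and 42.2 TPM (-0.52), and both kept their sign under each rescaling. Psmc1 stood at 85.4 and 75.1 TPM (-0.18, positive under each rescaling). The 2 ring members above 0 were Psmc6 at 62.7 and 94.1 TPM (0.58) and Psmc4 at 33.3 and 43.8 TPM (0.38). Genes of one ring, present in equal number in the particle, therefore had log2 ratios on both sides of 0.

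The 11 non-ATPase genes of the 19S particle summed to 1009 and 923 TPM, and 0 passed 2-fold in either direction. Their median log2 ratio was -0.01 as deposited and between 0.28 and 0.39 under the rescalings. Psmd14, the deubiquitinase that removes the chain, stood at 58.1 and 69.6 TPM (0.26), and its partner Psmd7 at 59.5 and 46.5 TPM (-0.35, positive under 1 rescaling). Psmd4, a ubiquitin receptor, stood at 84.9 and 76.6 TPM (-0.15, positive under each rescaling). The large scaffold subunits Psmd2 (207 and 214 TPM, log2 ratio 0.04) and Psmd1 (55.3 and 74.8 TPM, log2 ratio 0.43) were not lower. Among the lid subunits, Psmd8 had the lowest log2 ratio at -0.68, from 211 TPM in WT to 132 TPM in the labelled knockout, and kept its sign under each rescaling. Psmd13 stood at 79.0 and 60.5 TPM (-0.38, positive under 1 rescaling). The rest lay near 0, with Psmd11 at 75.4 and 67.8 TPM, Psmd12 at 47.3 and 46.8 TPM, Psmd3 at 38.2 and 38.6 TPM and Psmd6 at 92.4 and 96.8 TPM. The mean 19S gene stood at 1.28 times the mean 20S gene in WT and at 0.887 times in the labelled knockout, while the medians of the particles were close in both (75.4 and 74.0 TPM in WT, 74.8 and 75.4 TPM in the labelled knockout).

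Genes for factors that assemble the proteasome summed to 195 and 200 TPM, and 6 of 7 were higher, with a median log2 ratio of 0.39. Psmg1 and Psmg2, and Psmg3 and Psmg4, form the chaperone pairs that build the alpha ring. Psmg4 stood at 14.7 and 29.3 TPM (0.95, past 2-fold under each rescaling) and Psmg2 at 32.4 and 42.8 TPM (0.39). Their partners had smaller ratios, with Psmg3 at 6.71 and 7.40 TPM (0.12) and Psmg1 at 25.4 and 28.8 TPM (0.18). The chaperones of the ATPase ring differed in sign. Psmd10 (gankyrin), the X-linked member, stood at 2.79 and 8.10 TPM, 2.90-fold higher, with a log2 ratio of 1.26. Psmd5 stood at 14.1 and 21.3 TPM (0.57). Psmd9 was the one lower at 99.1 and 61.8 TPM (-0.67).

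**Figure D4:**
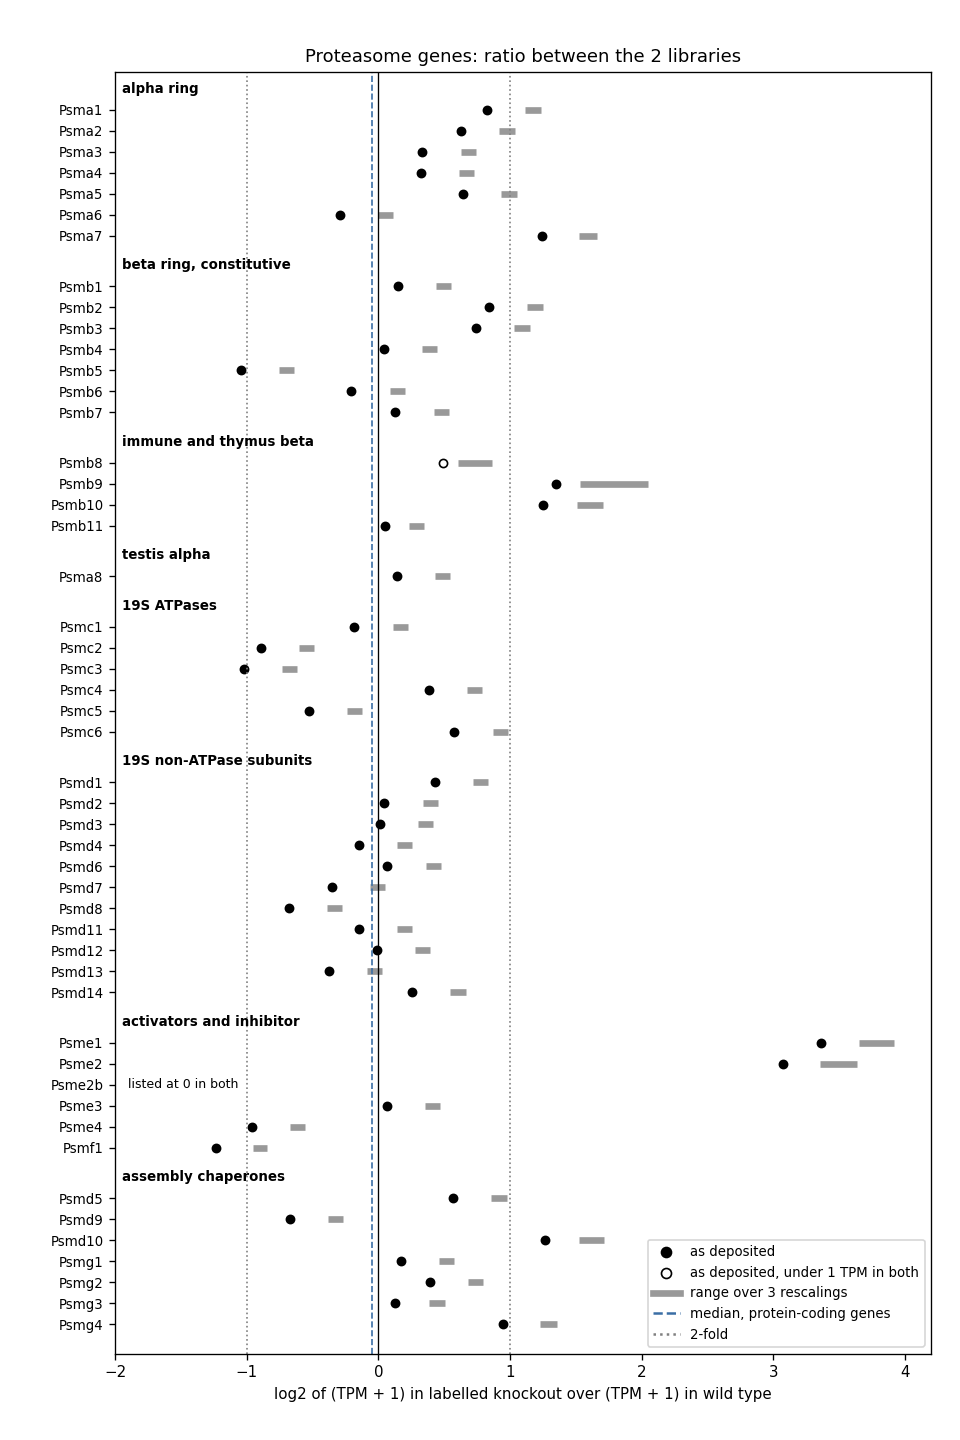
Log2 ratio of (TPM + 1) in the labelled knockout over wild type for each proteasome gene, as deposited (points, open where both libraries are under 1 TPM) and the range over 3 rescalings (grey bars), 1 library per genotype. The dashed line is the protein-coding median of -0.05 and dotted lines mark 2-fold. Psme1 (3.36) and Psme2 (3.07) lie to the right of the other genes, and Psmf1 (-1.24) lies farthest to the left.

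Across the members, the order of levels was largely shared by the libraries. Spearman's rho between the 2 libraries was 0.91 over the 47 members at 1 TPM or more and 0.85 over the 31 constitutive 20S and 19S genes. Among these 31 genes, 18 log2 ratios were above 0 as deposited, and 23, 26 and 24 under the 3 rescalings. The split by level that follows is as deposited and was not repeated under rescaling, and its counts above 0 differ little. Leaving out the gene in the middle, the 15 genes with the lowest mean TPM of both libraries (20.7 to 69.7) had a median log2 ratio of 0.38 with 10 above 0, and the 15 with the highest mean (77.2 to 461.0) had a median of 0.04 with 8 above 0. The rho between log2 ratio and mean level was -0.47 over the 31 genes, and -0.59 over the 47 members. The 47 include Psmb9, which is of low level and reached 1 TPM only in the labelled knockout, so its ratio could only be upward. The rho without Psmb9 was not computed, and the value over the 47 is not read as a stronger trend. With G+C content the rho was -0.44 over the 31 genes and -0.06 over the 47, and with gene length it was 0.11 and -0.22. These values describe genes of the same 2 libraries, which are not independent.

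Around the proteasome, 35 other genes of the ubiquitin pathway were read as lists. Of the 34 at 1 TPM or more, 9 (26.5%) were at least 2-fold higher and 2 lower, with a median log2 ratio of 0.23. Of all protein-coding genes, 18.7% were higher and 16.5% lower. Among the 9, Ubqln2 (0.336 TPM) and Irf1 (0.643 TPM) were under 1 TPM in WT and so could only have been counted upward. The remaining 19S subunits and the core maturation factor stood near equal, with Adrm1, a ubiquitin receptor, at 43.9 and 50.0 TPM, Sem1 at 37.7 and 33.9 TPM, and Pomp at 85.4 and 89.0 TPM. The 3 ubiquitin-activating E1 genes were all at least 2-fold higher, with the X-linked Uba1 at 10.7 and 27.8 TPM, the Y-linked Uba1y at 3.19 and 20.2 TPM, and the autosomal Uba6 at 8.14 and 21.2 TPM. The 4 ubiquitin genes had a median of 0.26, among them Rps27a at 390.0 and 433 TPM, and Ubb lower at 1895 and 1368 TPM (-0.47).

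Of the 9 proteasome-bound factors, 2 (22.2%) were at least 2-fold higher, near the 18.7% of all protein-coding genes, and 0 lower, with a median log2 ratio of 0.22. Usp14, a deubiquitinase on the 19S particle, stood at 23.4 and 62.1 TPM (1.37), and Txnl1 at 7.84 and 17.3 TPM (1.05). The scaffold AI314180 (Ecpas) stood at 51.0 and 86.1 TPM (0.74) and Ublcp1 at 29.7 and 38.2 TPM (0.35). Akirin2, which is known to bring proteasomes into the nucleus, stood at 139 and 72.9 TPM (-0.92), and Ube3c at 63.9 and 41.7 TPM (-0.60). The 7 genes of shuttles, which carry ubiquitinated proteins to the proteasome, had a median of -0.23 that turned positive under each rescaling. Among them Rad23b was lower at 107 and 52.0 TPM (-1.02), with Ubqln1 at -0.27 (positive under each rescaling), while the X-linked Ubqln2 (0.336 and 5.05 TPM, 2.18) and Zfand5 (18.1 and 40.9 TPM, 1.13) were higher.

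In the group of 4 genes for the VCP unfoldase, which extracts ubiquitinated proteins, and its adaptors, with a median of 0.34, Vcp stood at 161 and 220 TPM (0.45) and Nsfl1c at 25.6 and 50.1 TPM (0.94), while Nploc4 was lower at 133 and 64.9 TPM (-1.02). Of the 6 transcription factors listed, 5 were at 1 TPM or more, with 2 at least 2-fold higher, 0 lower and a median log2 ratio of 0.24, again beside 18.7% and 16.5%. Nfe2l1, the factor known to raise proteasome genes when degradation is impaired, stood at 21.9 and 26.1 TPM (0.24). The related Nfe2l2 stood at 1.07 and 6.83 TPM (1.92). Of the 2 counted as higher, Nfe2l2 and Irf1, the latter was under 1 TPM in WT (0.643) and could only have been counted upward. Mybl1, a pachytene transcription factor, stood at 102 and 86.5 TPM (-0.23, positive under each rescaling).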

How the data were processed

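The deposited table gives TPM per gene in 1 column per library. Each column sums to 1000000 over 53801 genes, and no read counts are held, so the depth behind each value and counting intervals are unknown. The submitters' processing notes name kallisto 0.43.1, GSNAP, TopHat, bcl2fastq 2.19.1 and the mm10 build, and what each was used for is not given in the sources used here. RNA was depleted of ribosomal RNA and sequenced as single strand-specific reads of 75 bases, per the labels' protocols. Per the file headers, the deposited G+C content in percent, length and coordinates describe genes. All 49 member identifiers were in GENCODE M21, 45 with the same start and end.

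Libraries were grouped by genotype label. Log2 ratios used a pseudocount of 1 TPM. Medians and 2-fold counts took genes that reached 1 TPM in either library. Alternatives were pseudocounts of 0.1 and 5, no filter, a filter of 5 TPM, 1.5-fold and 4-fold, and rescaling by a trimmed mean (30% of log2 ratios dropped at each end), without mitochondrial and the 20 most abundant genes, or over protein-coding genes alone. All members are named. Of the other pathway lists, up to 4 genes in the direction of the median and 2 in the other are named, plus Adrm1, Sem1, Pomp, Nfe2l1, Tap1 and B2m. Some genes of these lists are not reported here. Members and lists were chosen with earlier results of these data known. The summing with pseudogene copies, found from 75-base words of the GENCODE transcripts, was added after seeing the data, and so were rescaled sums and pathway medians. The ratio code was tested on simulated data. Python 3.11.15, NumPy 2.4.6, pandas 2.3.3, SciPy 1.17.1 and Matplotlib 3.10.9 were used.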

Additional observations from a re-analysis of the deposited data

How the results depend on the processing

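No paired analysis was possible because each genotype has 1 library. Of 77 group medians recomputed, 67 kept their sign and their side of 2-fold, as did 202 of 251 ratios of single members. As deposited 6 members were at least 2-fold higher and 3 lower. These counts became 10 and 0 with trimmed-mean rescaling, 12 and 0 without mitochondrial and the 20 most abundant genes, 11 and 0 over protein-coding genes alone, 12 and 7 at 1.5-fold, and 2 and 0 at 4-fold. With a pseudocount of 5 TPM 3 were higher. Under the 3 rescalings in that order, 21.3%, 25% and 22.9% of members were higher, against 24.3%, 28.1% and 27.2% of protein-coding genes. Lower were 0% of members each time, against 11.1%, 9.78% and 10.6% of protein-coding genes. The higher counts under rescaling thus do not set the members apart from protein-coding genes. Shares of protein-coding genes at 1.5-fold, 4-fold and the pseudocount of 5 TPM are not given here. Over the 3 rescalings in that order, the median of the 19S particle turned to 0.14, 0.26 and 0.20, that of its non-ATPase genes to 0.28, 0.39 and 0.34, and that of the shuttles to 0.056, 0.17 and 0.11. The summed log2 ratio of the non-ATPase genes turned to 0.17, 0.28 and 0.23. In the same order Psmb6 turned to 0.085, 0.20 and 0.14, Psmc1 to 0.11, 0.22 and 0.17, Psmd4 to 0.14, 0.26 and 0.20, Psmd11 to 0.14, 0.25 and 0.20, and Psmd12 to 0.28, 0.39 and 0.34. The second rescaling alone turned the ATPase median to 0.048, the summed 19S particle to 0.034, Psmd7 to 0.051 and Psmd13 to 0.024, and took the alpha ring median past 2-fold at 1.04. Psma6 turned to 0.11 there and to 0.056 over protein-coding genes alone. The turns follow from the factor of 1.23 to 1.33 that rescaling puts on the labelled knockout. The median of the immune and thymus genes was 1.25 as deposited, 0.39 with a pseudocount of 5 TPM and 0.87 without the filter, which then includes Psmb8. The depth behind Psmb8 and Psmb9, each under 2 TPM in both libraries, is unknown.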

Other observations

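The genes beside Psme1 and Psme2 had smaller log2 ratios than the pair. These neighbours were chosen after the values of the pair were seen. Within 20 kb on chromosome 14, Emc9, which overlaps the end of Psme1, had a level of 1.68 TPM in WT and 3.55 TPM in the labelled knockout, and Fitm1 at 3.15 and 5.78 TPM. Rnf31, which starts 594 bases from Psme2, stood at 2.91 and 3.34 TPM, and Dcaf11 at 47.1 and 40.3 TPM. A730061H03Rik, 17716 bases from Psme1, stood at 2.82 and 3.80 TPM. Irf9, an interferon-response factor 12457 bases beyond Psme2, stood at 0.478 and 2.14 TPM. It was under 1 TPM in WT and so could only have been counted upward. The log2 ratios of these neighbours lay between -0.22 (Dcaf11) and 1.09 (Irf9).

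The table also lists 5 entries whose symbol starts with Psm but lies outside the rule. Psmc3ip, the meiotic recombination factor HOP2, stood at 79.0 and 66.3 TPM. The pseudogenes Psmb5-ps, Psmb7-ps2, Psmb6-ps and Psmb6-ps2 were each under 0.5 TPM in both libraries, so the value of Gm3375 is not matched by the pseudogenes that carry a proteasome name.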
